A study of Homo sapiens with 6 samples.

Results

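The kinesins studied here are the 42 human genes whose symbol is KIF or KIFC followed by a number. Members were taken by symbol, with the antisense RNA KIF9-AS1 left out, but the family was chosen with earlier results of these data known. All 42 protein-coding genes of that name in RefSeq were measured among the 14884 genes tested. Gene expression was read on 6 whole-transcript Affymetrix arrays. The cells were U-2 OS, an osteosarcoma line of human origin, grown in DMEM with fetal bovine serum. On 3 arrays the cells expressed S22A-progerin, in which serine 22 is alanine, and on 3 arrays they expressed wt-progerin, without that change. Both proteins came from a retroviral vector, both groups were kept in 5 µg/ml puromycin for 3 days, and RNA was taken 4 days after infection. Progerin is the truncated, permanently farnesylated lamin A of Hutchinson-Gilford progeria, and serine 22 is a site phosphorylated when the lamina comes apart at mitosis. Every cell here therefore carried progerin, and cells without it were not analysed here. The comparison asks how transcript levels differ when serine 22 cannot be phosphorylated. Whether both groups held the same amount of progerin was not analysed here.

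Kinesins are motor proteins that use ATP to walk along microtubules or to take their ends apart. One set builds and elongates the mitotic spindle, moves chromosomes and closes the cleavage furrow, and in dividing cells its transcripts are made mainly in G2 and mitosis. Another set carries vesicles, mitochondria and other cargo in interphase cells and in neurons, and a smaller set works in cilia. The 42 genes were sorted by these known roles into 14 mitosis, 15 transport, 6 cilium and 7 other kinesins.

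In S22A-progerin cells 13 of the 14 mitosis kinesins fell, by 1.50-fold to 1.87-fold, and KIF2B rose. Of the 15 transport kinesins 5 fell by less, KIF17 and KIFC3 rose, and 8 did not pass the test. KIF24, a centriolar kinesin of the cilium class, fell 1.97-fold, the largest fall of any kinesin, while the other 5 cilium kinesins did not pass. Over all 42 genes 20 fell, 3 rose and 19 did not pass. A gene was called at a limma adjusted p under 0.05, adjusted over all genes tested. Over all 14884 genes 14.6% were called lower and 10.8% higher, so the 13 of 14 in the mitosis class compare with 14.6%, and the 5 of 15 in the transport class with the same share. The 1 of 6 called lower in the cilium class (16.7%) and the 1 of 7 among the other kinesins (14.3%) lay near that share. The arrays of the groups did not overlap, with S22A-progerin lower, in 23.6% of all genes, and with S22A-progerin higher in 18.5%. All values are log2 RMA values, and a difference is the S22A-progerin mean less the wt-progerin mean on that scale, with n = 3 arrays a group. Because each probe set has its own sensitivity, values are compared within a gene and not between genes.

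The promoters are shown first, since most of the mitosis kinesins hold the same short motifs near the start of transcription. Promoters of many mitotic genes hold a cell cycle genes homology region (CHR), bound by MuvB complexes, and a CCAAT box, bound by NF-Y. Windows from 250 bases before the annotated start to 50 bases from it were found for 34 of the 42 genes in RefSeq (GRCh38.p14), and not for KIF5A, KIF13B, KIF19, KIF21B, KIF26B, KIF27, KIFC2 and KIFC3. They were searched on both strands for the CHR core, TTTGAA or TTCGAA, and for CCAAT. The 9 stretches below run from 80 bases before the start to 30 bases from it. They are those of 4 mitosis kinesins taken as markers of the class (KIF23, KIF11, KIF20A, KIF4A) and of the KIF4A copy KIF4B. The others are those of KIF15 with the largest fall in its class, KIF22 and KIF24 with the rarer CHR core, and KIF2B, which rose. Capitals mark a CHR core (TTTGAA, its reverse complement TTCAAA, or the palindrome TTCGAA) or a CCAAT box (CCAAT or its reverse complement ATTGG).
KIF23, chr15:69414269-69414378, plus strand: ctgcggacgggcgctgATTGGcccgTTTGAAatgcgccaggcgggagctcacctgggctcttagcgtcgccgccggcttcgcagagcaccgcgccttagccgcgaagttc
KIF11, chr10:92593050-92593159, plus strand: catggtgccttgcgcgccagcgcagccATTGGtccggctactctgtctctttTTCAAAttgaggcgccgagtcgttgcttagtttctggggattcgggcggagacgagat
KIF20A, chr5:138179032-138179141, plus strand: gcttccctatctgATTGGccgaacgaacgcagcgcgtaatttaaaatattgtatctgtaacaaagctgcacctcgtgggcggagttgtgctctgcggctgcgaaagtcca
KIF4A, chrX:70290024-70290133, plus strand: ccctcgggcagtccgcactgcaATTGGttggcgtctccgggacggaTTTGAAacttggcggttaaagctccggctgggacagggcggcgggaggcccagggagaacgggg
KIF4B, chr5:155013675-155013784, plus strand: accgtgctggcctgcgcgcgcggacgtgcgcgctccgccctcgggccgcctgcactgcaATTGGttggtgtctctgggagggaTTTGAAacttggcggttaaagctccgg
KIF15, chr3:44761714-44761823, plus strand: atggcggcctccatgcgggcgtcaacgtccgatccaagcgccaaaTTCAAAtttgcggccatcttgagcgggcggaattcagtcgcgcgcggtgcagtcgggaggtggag
KIF22, chr16:29790671-29790780, plus strand: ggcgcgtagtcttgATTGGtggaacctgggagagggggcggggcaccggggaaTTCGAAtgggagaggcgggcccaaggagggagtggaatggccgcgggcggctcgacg
KIF24, chr9:34329239-34329348, minus strand: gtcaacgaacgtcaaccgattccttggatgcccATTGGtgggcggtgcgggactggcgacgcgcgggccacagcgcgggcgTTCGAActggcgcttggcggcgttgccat
KIF2B, chr17:53822847-53822956, plus strand: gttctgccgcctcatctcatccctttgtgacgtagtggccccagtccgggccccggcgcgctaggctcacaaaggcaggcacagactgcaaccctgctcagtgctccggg

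A CHR core lay in the full window of 11 of the 14 mitosis kinesins, and in all 11 it lay within the 110 bases of the kind printed above. Of the 20 other kinesins with a window 2 held it, KIF24 at 2 bases from the start and KIF5B at 140 bases before it. Counted in the same way by gene, 17.0% of the 10749 genes tested with a window held a CHR core and 41.4% a CCAAT box. In the shorter stretch the shares were 5.63% and 22.5%, and 1.39% held both. Over all 35116 promoter windows of this length the full-window shares were 16.4% and 34.6%. In that stretch 9 of the 14 mitosis kinesins held both, and among the 20 others 1 did, KIF24. KIF2C and KIF2B held neither motif, and KIF20A held CCAAT boxes but no CHR core. The KIF4A and KIF4B windows aligned over 144 columns with 135 identical bases (93.8%), and both hold the same CCAAT and CHR letters at different distances from their annotated starts. A match is a run of letters and not a shown binding site. KIF20A and KIF2C, which also fell, held neither TTTGAA nor TTCGAA in these windows, and other spellings of the CHR were not searched. The part of these motifs in the falls was not tested.

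**Figure D1:**
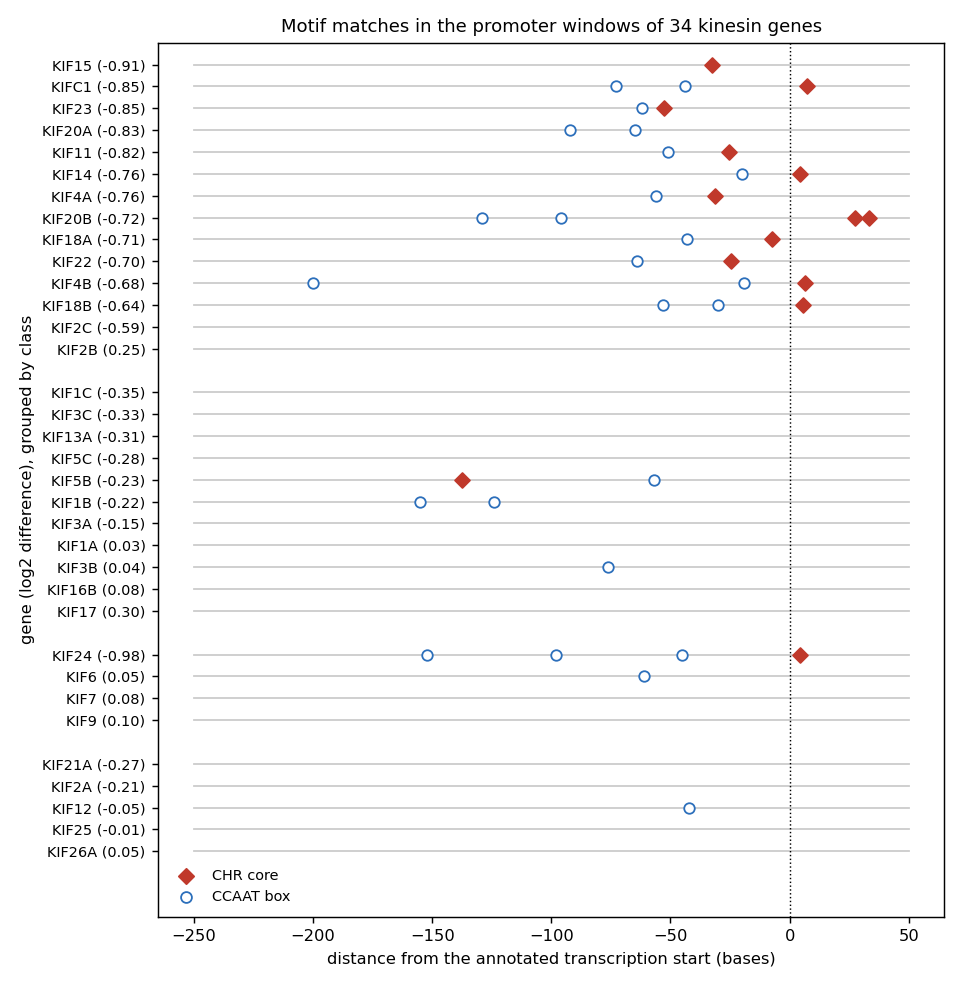
Position of each CHR core (red diamonds) and CCAAT box (open blue circles) in the first listed RefSeq window of 34 kinesin genes, in bases from the annotated start (dotted line), with the log2 difference (S22A-progerin minus wt-progerin) after each name. Diamonds lie close to the start in 11 of the 14 mitosis kinesins at the top and in KIF24, and KIF5B has the remaining one, at 140 bases before the start.

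The kinesins of the central spindle and midbody act at the end of division, and all 4 fell. KIF23 (MKLP1) pairs with RACGAP1 as centralspindlin, which bundles midzone microtubules. KIF23 was read at 10.56, 10.58 and 10.56 in S22A-progerin and at 11.42, 11.41 and 11.41 in wt-progerin. These were the tightest replicates among the falls, with SDs of 0.0124 and 0.00401, and the groups lay far apart. KIF23 thus differed by -0.85 and was 1.80-fold lower (SE 0.0476, 95% interval -0.96 to -0.73, limma adjusted p = 5.78e-05). That SE uses limma's variance prior, estimated from all genes tested, so it is not set by these SDs alone. KIF20A (MKLP2) brings the chromosomal passenger complex to the midzone, and was read at 9.93, 9.82 and 9.85 in S22A-progerin against 10.67, 10.72 and 10.69 in wt-progerin. It fell by 0.83 on the log2 scale (SE 0.0541, 1.77-fold, limma adjusted p = 9.99e-05). KIF14, which docks citron kinase at the midbody, was read at 9.21, 9.13 and 9.17 in S22A-progerin against 9.86, 9.97 and 9.97 in wt-progerin. Its fall was 0.76 (-0.76, SE 0.0575). KIF20B (MPHOSPH1), needed late in cytokinesis, had 8.89, 8.94 and 9.05 in S22A-progerin against 9.71, 9.66 and 9.66 in wt-progerin, a difference of -0.72 (SE 0.0595). No array of 1 group reached the range of the other in any of these 4 genes.

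KIF11 (Eg5) crosslinks antiparallel microtubules and pushes the spindle poles apart. Its values were 10.43, 10.48 and 10.42 in S22A-progerin and 11.25, 11.24 and 11.31 in wt-progerin, a difference of -0.82 (SE 0.052, 95% interval -0.94 to -0.70), 1.77-fold lower, at limma adjusted p = 8.76e-05. KIF15, which can keep a spindle bipolar when KIF11 is blocked, was read at 8.83, 8.65 and 8.69 in S22A-progerin against 9.70, 9.59 and 9.60 in wt-progerin. It had the largest fall of the mitosis class, 0.91 (-0.91, SE 0.0688, limma adjusted p = 0.000172). KIFC1 (HSET) walks to the minus end, focuses the poles and clusters extra centrosomes. It had 9.04, 9.09 and 8.79 in S22A-progerin against 9.83, 9.84 and 9.80 in wt-progerin, a difference of -0.85 (SE 0.0834). Replicate 3 of S22A-progerin was the lowest of the 6 arrays for KIFC1. The gene had 4 probe sets: 2 carried identical values, another differed by -0.87, and the dimmest by -0.13 at limma adjusted p = 0.275.

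The chromosome-bound and plus-end kinesins fell by similar amounts. KIF4A, which works with PRC1 to set the length of the midzone and also sits on chromosome arms, was read at 9.91, 9.78 and 9.87 in S22A-progerin against 10.58, 10.61 and 10.63 in wt-progerin. It differed by -0.76 (SE 0.057, 1.69-fold lower, limma adjusted p = 0.000169). KIF4B is an intronless copy of KIF4A, and its probes may read KIF4A transcripts, which was not tested. It had 8.59, 8.36 and 8.53 in S22A-progerin against 9.25, 9.13 and 9.13 in wt-progerin, a difference of -0.68 (SE 0.0764). KIF22 (Kid), which pushes chromosome arms away from the poles, had 9.21, 9.10 and 9.11 in S22A-progerin against 9.82, 9.86 and 9.82 in wt-progerin (-0.70, SE 0.0557). KIF18A, which damps the swings of chromosomes on the metaphase plate, had 9.45, 9.48 and 9.55 in S22A-progerin against 10.23, 10.16 and 10.23 in wt-progerin (-0.71, SE 0.0554). Its relative KIF18B, which acts on astral microtubules, had 9.79, 9.82 and 9.64 in S22A-progerin against 10.34, 10.39 and 10.43 in wt-progerin (-0.64, SE 0.0666). In each of these genes every S22A-progerin array lay below every wt-progerin array.

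The kinesin-13 members take microtubule ends apart instead of walking, and they did not move alike. KIF2C (MCAK), which corrects faulty attachments at centromeres, had 9.66, 9.56 and 9.66 in S22A-progerin against 10.22, 10.24 and 10.19 in wt-progerin. It showed the smallest fall of the mitosis class, 1.50-fold (-0.59, SE 0.0541, 95% interval -0.71 to -0.46, limma adjusted p = 0.000384). KIF2A, which acts at spindle poles and also trims neurites, had 10.56, 10.49 and 10.36 in S22A-progerin against 10.65, 10.74 and 10.65 in wt-progerin. Its groups did not overlap, but the difference of -0.21 (SE 0.0679, 95% interval -0.37 to -0.05) did not pass, at limma adjusted p = 0.0589. KIF2A passed with the arrays median centred (limma adjusted p = 0.048), with the dimmer 50% of genes left out (0.0157), with a trended variance prior (0.0078) or without S22A-progerin replicate 1 (0.0495). KIF2B, a testis-enriched relative, rose: it had 6.72, 6.83 and 6.76 in S22A-progerin against 6.45, 6.60 and 6.51 in wt-progerin. The groups did not overlap and the difference was 0.25 (SE 0.0634, 95% interval 0.10 to 0.40, limma adjusted p = 0.0268). That call was lost without wt-progerin replicate 1 (limma adjusted p = 0.0943) or 3 (0.0873), and without S22A-progerin replicate 2 (0.0789) or 3 (0.0527). KIF2B was among the dimmer 50% of genes, below the median of tested genes on every array (7.09 to 7.12). With no detection call used here, its signal cannot be told from background.

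KIF24, the remaining kinesin-13 member, sits on the mother centriole, where it works with CP110 to hold back the growth of a cilium. It was read at 8.14, 7.96 and 8.07 in S22A-progerin against 9.01, 9.06 and 9.03 in wt-progerin. The means were 8.05 ± 0.0902 and 9.03 ± 0.023 (SD, n = 3 each), and the difference was -0.98 (SE 0.0621, 95% interval -1.13 to -0.83, limma adjusted p = 8.86e-05). Of all differences tested, 0.571% were as low or lower. The other cilium kinesins were KIF6 and KIF9 of motile cilia, KIF7 of Hedgehog signalling at the cilium tip, KIF19, which shortens motile cilia, and KIF27, a relative of KIF7. They differed by 0.02 to 0.10, with overlapping groups in all 5 and limma adjusted p from 0.345 to 0.888. On the brightest probe set of each gene their 95% intervals all lay between -0.18 and 0.28, and none reached the fall seen in KIF24. However, KIF6, KIF9, KIF19 and KIF27 lay below the median of tested genes on every array (7.09 to 7.12). With no detection call used here, their signal cannot be told from background, and a fall might not show in it. KIF7, at 7.84 to 7.99, lay above that median. KIF27 had 3 probe sets, and the brightest was used. Another, read at only 2.86 to 3.97, differed by -0.41 (limma adjusted p = 0.194). Its wide 95% interval, -0.87 to 0.06, overlapped that of KIF24. The remaining dim set differed by 0.07. With probe sets averaged KIF27 differed by -0.09 and did not pass.

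**Figure D2:**
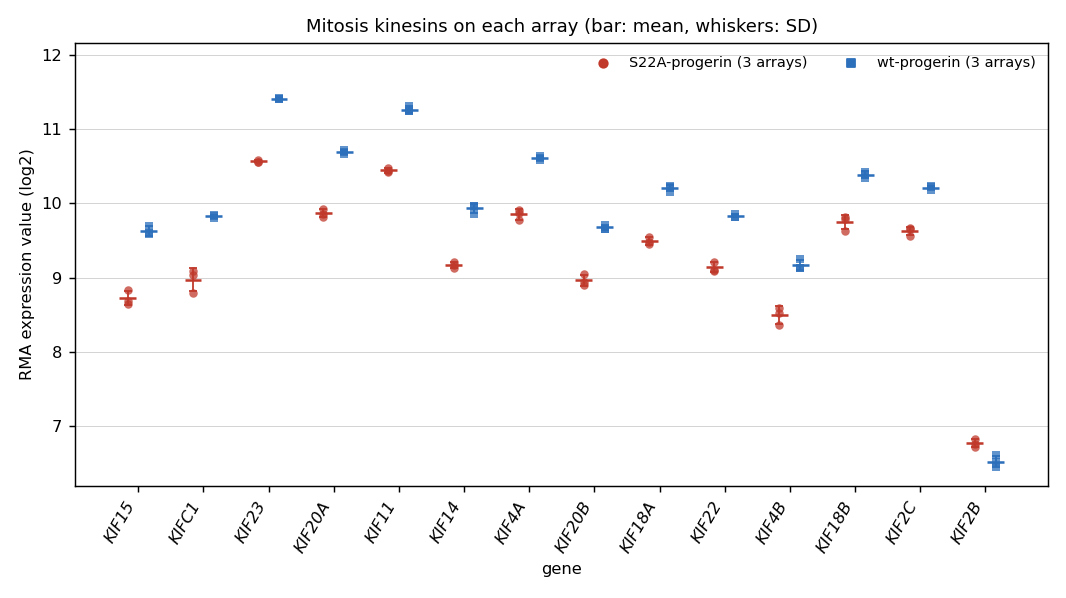
RMA expression values (log2) of the 14 mitosis kinesins on each array, with S22A-progerin as red circles left of wt-progerin as blue squares, the group mean as a bar and the SD as whiskers. In 13 genes the 3 S22A-progerin arrays all lie below the 3 wt-progerin arrays, and in KIF2B, at 6.45 to 6.83, they lie above.

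As a class the mitosis kinesins had a median difference of -0.74, against -0.0037 over all genes tested. Set against each gene's wt-progerin mean, the class median was -0.74, -0.76 and -0.74 on the S22A-progerin arrays and within 0.01 of 0 on the wt-progerin arrays. The falls lay in a narrow band, from -0.91 for KIF15 to -0.59 for KIF2C. Leaving out KIF2B and KIF4B, the median over the other 12 was -0.76. The groups did not overlap in any of the 14 genes, 13 lower and 1 higher, beside the 23.6% and 18.5% of all genes. All 13 falls passed with any array left out, and under every other setting tried, a threshold of 0.01 included.

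Other genes that mark dividing cells were lower as well. MKI67, which encodes the proliferation marker Ki-67, differed by -0.73 (SE 0.0622), TOP2A, DNA topoisomerase II alpha, by -0.62, and CCNB1, cyclin B1, by -0.60. PCNA, the replication clamp, differed by -0.24 and passed narrowly (limma adjusted p = 0.0495). The PCNA call was lost with any array left out (limma adjusted p from 0.0618 to 0.149). Fewer cells in G2 and mitosis and less RNA of these genes per cell cannot be told apart in bulk RNA. No cell counts or cell cycle measurements were analysed here. LMNA, the gene of lamin A, differed by 0.15 with groups that did not overlap, but it did not pass (limma adjusted p = 0.0796). Since progerin is a form of lamin A, the LMNA probes may also read transcripts of the vector, which was not tested.

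**Figure D3:**
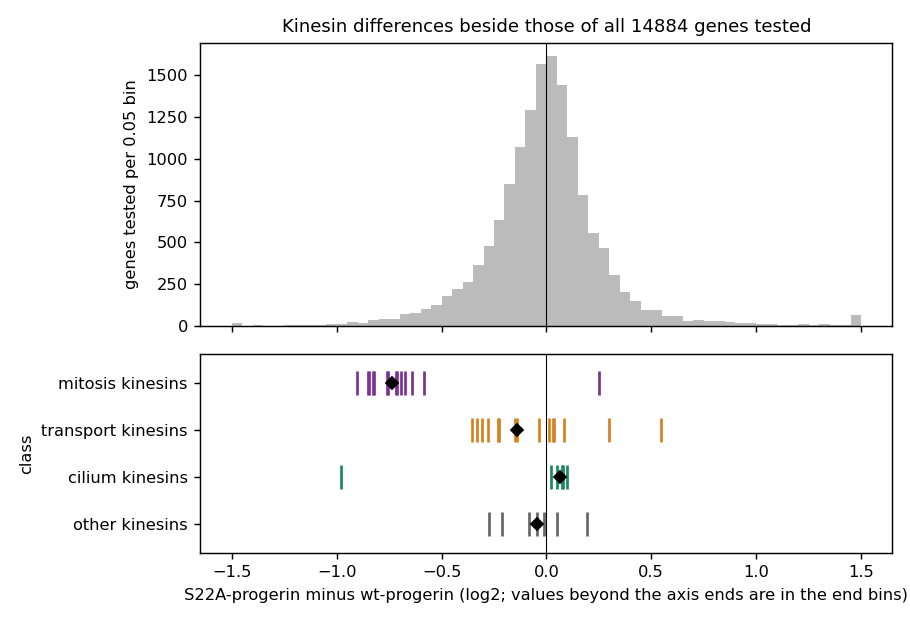
The upper panel is a histogram of the log2 differences (S22A-progerin minus wt-progerin) of all 14884 genes tested, and the lower panel marks each kinesin by class with a tick and the class median with a diamond. The mitosis ticks, apart from KIF2B, lie between -0.91 and -0.59, the transport ticks spread on both sides of 0, and KIF24 stands alone at -0.98 among the cilium kinesins.

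The transport kinesins spread on both sides of 0, from -0.35 to 0.54, with a median of -0.14. Their 5 falls were each smaller than the smallest fall of the mitosis class. KIF5B, the widely expressed heavy chain of kinesin-1, was read at 11.85, 11.89 and 11.86 in S22A-progerin against 12.08, 12.12 and 12.10 in wt-progerin. The arrays were tight and did not overlap, and the difference was -0.23 (SE 0.0487, 1.17-fold lower, limma adjusted p = 0.0127). KIF5C, a neuronal heavy chain, had 7.50, 7.31 and 7.34 in S22A-progerin against 7.69, 7.65 and 7.65 in wt-progerin, a difference of -0.28 (SE 0.0662, limma adjusted p = 0.0209). KIF5A, the third heavy chain, had overlapping groups and did not pass (-0.14, 95% interval -0.39 to 0.11).

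Among the kinesin-3 motors, KIF1C, which moves dense-core vesicles and integrins, had 8.98, 8.95 and 9.17 in S22A-progerin against 9.35, 9.39 and 9.42 in wt-progerin. It had the largest fall of the transport class, 1.28-fold (-0.35, SE 0.0717, limma adjusted p = 0.0111). KIF13A, a motor of recycling endosomes, had 8.32, 8.23 and 8.32 in S22A-progerin against 8.63, 8.58 and 8.59 in wt-progerin, a difference of -0.31 (SE 0.0537, limma adjusted p = 0.00611). KIF1B, a motor of mitochondria and synaptic vesicle precursors, had 8.41, 8.24 and 8.48 in S22A-progerin against 8.58, 8.61 and 8.62 in wt-progerin. Its groups did not overlap, but it did not pass (-0.22, SE 0.0724, limma adjusted p = 0.0615), and a dimmer second probe set differed by -0.01. KIF1B passed with the arrays median centred (limma adjusted p = 0.0414), with array weights (0.0359), with the dimmer 50% of genes left out (0.0167), with a trended variance prior (0.0215) or without S22A-progerin replicate 3 (0.0327). KIF13B, the closest relative of KIF13A, differed by -0.04 (95% interval -0.16 to 0.09). KIF1A, the neuronal motor of synaptic vesicle precursors, differed by 0.03, and KIF16B, a motor of early endosomes, by 0.08. Neither passed.

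The kinesin-2 motors also split. KIF3C, a neuronal partner of KIF3A, had 9.07, 8.84 and 8.91 in S22A-progerin against 9.26, 9.29 and 9.26 in wt-progerin, and fell by 0.33 on the log2 scale (SE 0.071, limma adjusted p = 0.0141). KIF3A and KIF3B form the motor that carries cargo up the cilium. KIF3A differed by -0.15 (SE 0.0624) with groups that did not overlap, but it did not pass (limma adjusted p = 0.129). KIF3B differed by 0.04, with a 95% interval of -0.09 to 0.17. KIF17, a homodimeric motor of dendrites and cilia, rose: it had 7.45, 7.54 and 7.48 in S22A-progerin against 7.18, 7.32 and 7.07 in wt-progerin. The difference was 0.30 (SE 0.0747, 1.23-fold, limma adjusted p = 0.0248), and the wt-progerin arrays were the more scattered group. KIF3A passed with the dimmer 50% of genes left out.

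KIFC3 showed the largest rise of any kinesin. It walks to the minus end and is known for transport in epithelial cells and for work at adherens junctions. It was read at 8.06, 8.12 and 8.31 in S22A-progerin against 7.65, 7.64 and 7.57 in wt-progerin, so that the lowest S22A-progerin array stood well above the highest wt-progerin array. The means were 8.16 ± 0.133 and 7.62 ± 0.0411 (SD, n = 3 each). KIFC3 was 1.46-fold higher, a difference of 0.54 (SE 0.0765, 95% interval 0.36 to 0.72, limma adjusted p = 0.00239). KIFC2, the other C-terminal motor of the class, differed by 0.01 (95% interval -0.11 to 0.14).

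How firmly the transport calls stood varied by gene. Without wt-progerin replicate 2 the falls numbered 2, as KIF5B, KIF5C and KIF3C missed (limma adjusted p = 0.0531, 0.0586 and 0.051). Without wt-progerin replicate 3 they numbered 3, as KIF5B (0.051) and KIF5C (0.0639) missed. KIF5C also missed without wt-progerin replicate 1 or S22A-progerin replicate 2 or 3 (limma adjusted p from 0.0532 to 0.0723). KIF17 missed with any array left out except wt-progerin replicate 2 (limma adjusted p from 0.0519 to 0.0776). KIF13A, KIF1C and KIFC3 passed with any array left out.

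**Figure D4:**
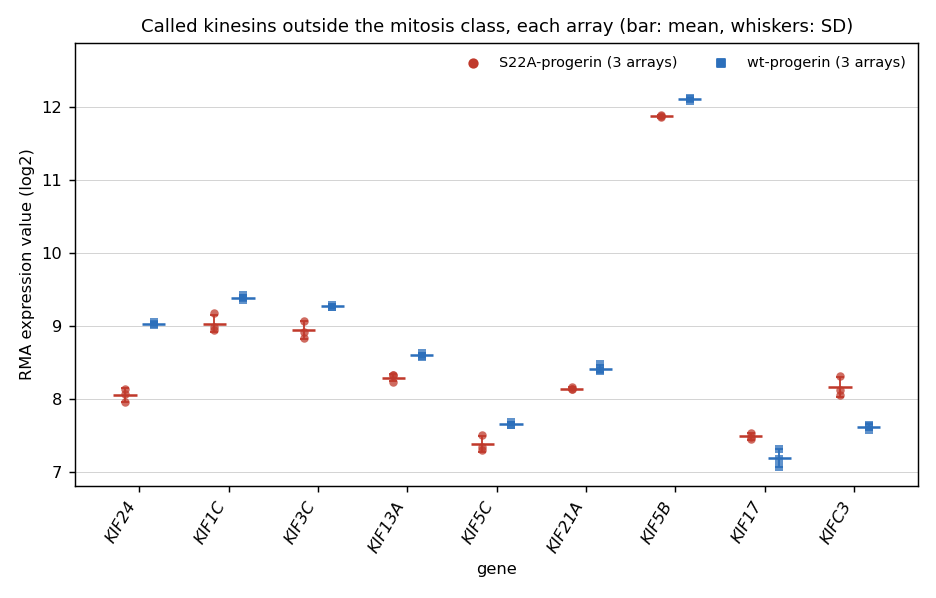
RMA expression values (log2) of the 9 kinesins outside the mitosis class that passed, on each array, with S22A-progerin as red circles left of wt-progerin as blue squares, the group mean as a bar and the SD as whiskers. KIF24 shows the widest gap below wt-progerin, KIFC3 the widest above, and the other 7 differ by less.

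Of the 7 other kinesins, KIF21A, which halts microtubule growth at the cell cortex, was the member that passed. That share of 14.3% is near the 14.6% called lower over all genes tested. It had 8.13, 8.13 and 8.17 in S22A-progerin against 8.38, 8.47 and 8.39 in wt-progerin, and fell by 0.27 on the log2 scale (SE 0.0527, limma adjusted p = 0.00927). Its relative KIF21B differed by -0.08 with overlapping groups. KIF26B, an atypical kinesin, had 5.61, 5.71 and 5.50 in S22A-progerin against 5.39, 5.40 and 5.46 in wt-progerin. These groups did not overlap, but the difference of 0.19 (SE 0.0673) did not pass, at limma adjusted p = 0.0809. KIF26B passed with array weights and without S22A-progerin replicate 3. KIF12, KIF25 and KIF26A differed by -0.05, -0.01 and 0.05, all with overlapping groups.

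**Figure D5:**
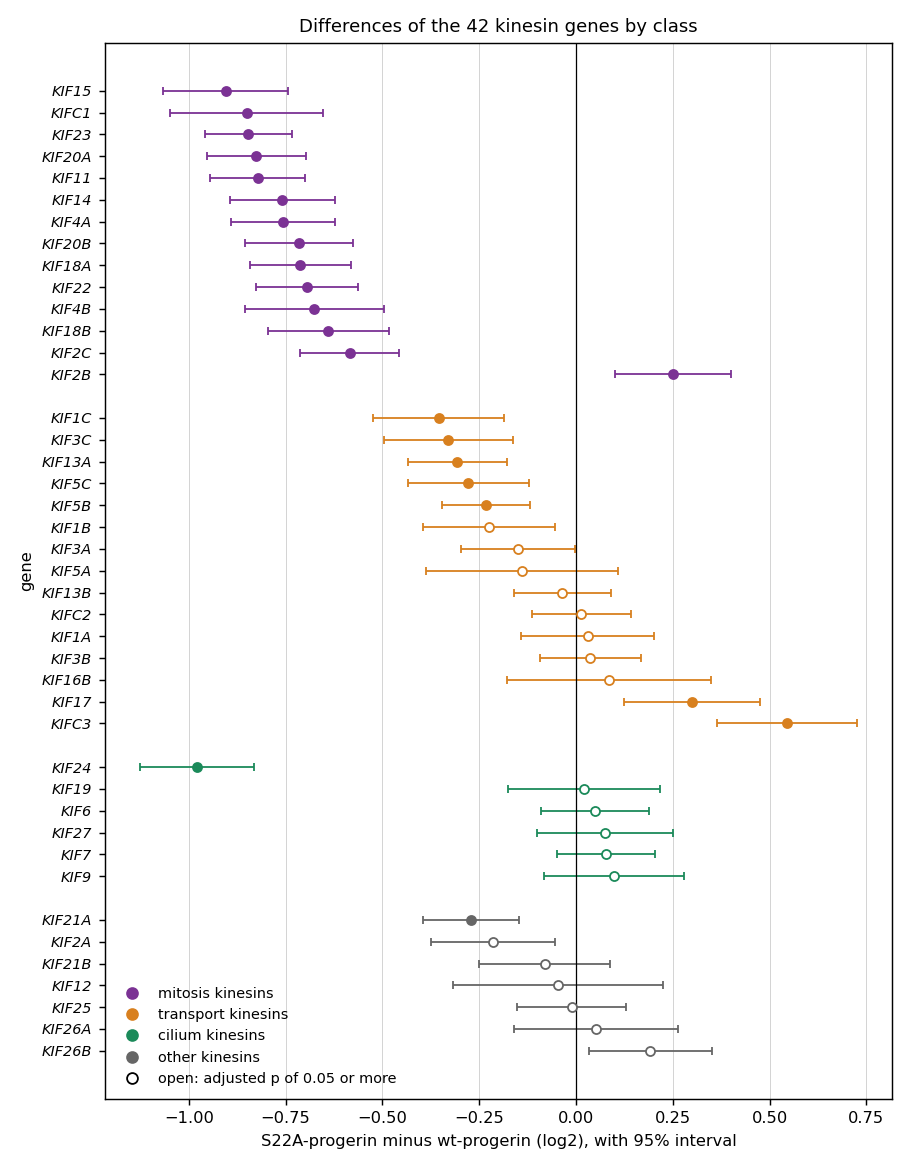
Log2 differences (S22A-progerin minus wt-progerin) of the 42 kinesin genes with 95% intervals, coloured by class, filled where the limma adjusted p was under 0.05. The intervals of 13 mitosis kinesins and KIF24 reach no higher than -0.46, and those of KIF17, KIFC3, KIF2B and KIF26B lie wholly above 0, KIF26B without passing.

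Partners of the motors were read from lists drawn up by role, which may include motors with other symbols. Of 10 proteins that work with mitosis kinesins 7 were measured, and all 7 fell, with a median of -0.59. Over all genes tested 14.6% were called lower, and the median was -0.0037. PRC1, which bundles midzone microtubules with KIF4A, had 9.79, 9.80 and 9.73 in S22A-progerin against 10.56, 10.63 and 10.64 in wt-progerin (-0.84, SE 0.054, limma adjusted p = 9.41e-05). The chromosomal passenger genes INCENP (-0.70), CDCA8 (-0.60) and BIRC5 (-0.47) fell too. Of 21 genes listed as partners of transport kinesins 16 were measured. Among them 3 fell, none rose and 13 did not pass, with a median of 0.0009, against 14.6% lower and 10.8% higher over all genes. The falls were GRIP1 (-0.44), an adaptor that ties glutamate receptors to KIF5, RHOT1 (-0.39), which couples mitochondria to kinesin-1, and KLC1 (-0.27), a kinesin-1 light chain. KIFBP, a kinesin-binding protein, did not pass (-0.17, limma adjusted p = 0.0853).

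Cytoplasmic dynein, which moves the opposite way along microtubules, was represented by 11 of 25 listed genes of dynein, dynactin and their adaptors. Of these 2 fell (18.2%), 1 rose (9.09%) and 8 did not pass, with a median of -0.03. Those shares are near the 14.6% lower and 10.8% higher of all genes tested. NDE1, a dynein regulator also needed in mitosis, fell by 0.54 (-0.54, SE 0.0761, limma adjusted p = 0.00252). ACTR10, a dynactin subunit, differed by -0.39 (limma adjusted p = 0.0237), and DCTN5, another, by 0.20 (limma adjusted p = 0.032). ACTR10 missed without any 1 of the wt-progerin arrays (limma adjusted p from 0.0577 to 0.0729), and DCTN5 missed with any array left out except S22A-progerin replicate 3. DCTN3, also of dynactin, did not pass (-0.17, limma adjusted p = 0.103).

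Across genes, which are not independent replicates, the arrays correlated at 0.994 to 0.996 within S22A-progerin, at 0.996 to 0.997 within wt-progerin and at 0.983 to 0.985 between the groups. The series' design text calls the replicates independent. The SEs, intervals and p-values rest on the spread among 3 arrays a group and on the variance prior of limma's eBayes step. That prior is estimated from all genes tested, and each gene's variance is drawn toward it. The marker counts that follow stand beside 14.6% called lower and 10.8% called higher over all genes tested. Of 9 osteoblast-lineage markers 4 were measured, with summed log2 levels of 26.3 to 26.7 in S22A-progerin and 25.9 to 26.2 in wt-progerin. RUNX2 averaged 8.03 in S22A-progerin and 8.77 in wt-progerin and was lower (-0.74), SPP1 was higher (1.18), and SP7 and IBSP did not pass. With no detection call used here, a low value such as that of IBSP (3.88 in S22A-progerin and 3.86 in wt-progerin) cannot be told from absence. Of 5 neuron markers 3 were measured and 2 were higher, STMN2 (0.73) and GAP43 (0.29). STMN2 and GAP43 lay below the median of tested genes on every array (7.09 to 7.12), so the same caution on low values holds for them. The summed log2 level of the 3 neuron markers ran from 20.1 to 20.6 in S22A-progerin and from 18.8 to 19.3 in wt-progerin. Of 5 epithelial markers 4 were measured and 1 was higher, KRT18 (0.51), with sums of 32.7 to 32.9 in S22A-progerin and 32.2 to 32.9 in wt-progerin. Of 6 leukocyte markers 3 were measured and none passed, with sums of 17.1 to 18.0 in S22A-progerin and 16.7 to 17.3 in wt-progerin. The part of these genes in the rises of KIF17 and KIFC3 was not tested.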

How the data were processed

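The deposited values were log2 expression values. Per the submitters' processing notes the authors made them with RMA, a method that corrects background, quantile normalizes and summarises each probe set, in the Affymetrix Expression Console. Software versions and the genome build were not given in the sources used here. Of 53617 probe sets 16098 had 1 gene symbol in the platform annotation. The brightest probe set by mean over the 6 arrays stood for each of 14884 genes. Genes were tested with limma 3.58.1 (R 4.3.3), lmFit and eBayes, as a two-sided comparison of 2 groups without covariates or a filter on dim genes, and adjusted by Benjamini-Hochberg over all genes. The code was tested on simulated data. Promoter windows came from RefSeq (GRCh38.p14), aligned with Biopython 1.88. Arrays give no read depth, and their number limits the precision. The kinesins, role classes, partner lists and motifs were chosen with earlier results of these data known, and the motifs after the values were seen. Every kinesin could be named, as could the 4 members of each partner list with the smallest p. Same-numbered replicates of the groups did not deviate together (correlations of -0.0549 to -0.0056), so the numbers were not taken as pairs. Alternatives covered normalization, dim genes, probe sets, variance priors, array weights, the replicate block, left-out arrays, the threshold and the class boundary.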

Additional observations from a re-analysis of the deposited data

How the results depend on the processing

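With each array left out in turn, the 13 falls of the mitosis class stayed at 13 and its rises at 0 to 1. The transport class then had 2 to 5 falls and 1 to 2 rises, the other kinesins 1 to 2 falls and 0 to 1 rises, and the dynein list 1 to 2 falls and 0 to 1 rises. The class median ran from -0.76 to -0.71 for mitosis and from -0.16 to -0.055 for transport, the value without wt-progerin replicate 2. The median of the mitosis class was -0.70 with the arrays quantile normalized again, -0.77 with the arrays median centred, -0.76 with the dimmer 50% of genes left out and -0.71 with probe sets averaged. With dim genes left out KIF2B was not tested, which left 0 rises in the mitosis class, and there were 2 falls among the other kinesins and 1 rise among the transport partners. The other kinesins also had 2 falls with the arrays median centred and with a trended prior, robust or not, and 1 rise with array weights. The dynein list had 0 rises with the arrays median centred. At an adjusted p under 0.01 there were 1226 lower and 852 higher genes, against 2176 and 1601 at 0.05. That threshold left 1 fall and 1 rise in the transport class, 0 rises in the mitosis class, and 1 fall and 0 rises in the dynein list. With the replicate number as a fixed block 1705 genes were lower and 1285 higher, the mitosis class kept its 13 falls, the dynein list had 0 rises, and KIF5B missed (limma adjusted p = 0.0533). As a random block it gave 2043 and 1501. Counting KIF2A, KIF24 and KIF25 with the mitosis class gave 14 falls, as KIF24 fell while KIF2A and KIF25 did not pass. The share of falls in that wider class was thus lower than the 13 of 14. Over 664 settings of single kinesins, 626 kept the side of the threshold, 24 lost a call, 14 gained one and 0 calls changed sign. Where calls changed, the cause was not tested.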

Other observations

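The CHR core near the start was also counted over the other genes, as a description chosen after the kinesin values were seen. Among genes tested with a RefSeq window, 173 of 1772 called lower (9.76%) held it between 80 bases before the start and 30 bases from it. The share was 4.59% of the 1198 genes called higher and 4.85% of the 7779 not called. A CHR core together with a CCAAT box in that stretch was found in 4.12% of the genes called lower, 1.00% of those called higher and 0.823% of those not called. Most genes called lower therefore hold no CHR core in that stretch.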
